A study of Mus musculus with 6 samples.

Results

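MHC class II molecules present peptides to CD4+ T cells, and costimulatory molecules on the same cell give the second signal that the T cell needs. The 10 genes described here cover both steps and were taken by symbol from a table of 19309 genes: *H2-Aa*, *H2-Ab1* and *H2-Eb1* (class II chains), *H2-DMa* and *H2-DMb1* (peptide loading), *Cd74* (invariant chain), *Ciita* (class II transactivator), and *Cd40*, *Cd80* and *Cd86* (costimulation). All 10 were found and all 10 passed the filter of a mean above 5 counts. RNA was sequenced from M2c macrophages of 3 sEH-/- and 3 wild-type mice, where sEH is the soluble epoxide hydrolase encoded by *Ephx2*. The sEH-/- mice carried a constitutive deletion in all tissues, and the methods describe age- and strain-matched littermates, mostly females, with bone marrow taken at 8 to 10 weeks. In both genotypes, bone marrow monocytes grew for 7 days with GM-CSF and M-CSF, which gave macrophages that received LPS and IFN-γ and, later, TGF-β1. For the last 2 steps the series description gives 24 h and 48 h, whereas the methods give 12 h and then 24 or 48 h.

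In mice, the class II molecules I-A and I-E are pairs of an α and a β chain. *H2-Aa* and *H2-Ab1* encode the chains of I-A, and *H2-Eb1* encodes the β chain of I-E. No row was found for the α chain gene of I-E, under *H2-Ea* or *H2-Ea-ps*. These are RNA counts, so they do not show whether the cells made I-E. The values of *H2-Eb1* below concern its RNA only. The invariant chain escorts new class II molecules to the endosome, where H2-DM exchanges its remnant for peptides. CIITA does not bind DNA itself but joins factors on the X and Y boxes of class II promoters, and IFN-γ is a classical inducer of *Ciita* in macrophages. CD80 and CD86 engage CD28 and CTLA-4 on T cells, and CD40 receives the CD40 ligand signal from T cells.

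The promoters of *H2-Aa* and *H2-Eb1* are shown because these genes lie next to each other, and only one of them differed between the genotypes. That of *H2-DMb2*, a near copy of *H2-DMb1*, is shown because its transcript moved the other way. The lines give a window of 65 bases around ATTGG, which ends some way before the RefSeq start (GRCm38.p6). The letters CTNGNAAC (an X box core) and ATTGG (a Y box core) are in capitals. The *H2-DMb2* window lies inside the deposited bounds of that gene (chr17:34143307-34151555). These letters were chosen after these promoters had been viewed.
H2-Aa, chr17:34287857-34287921, minus strand: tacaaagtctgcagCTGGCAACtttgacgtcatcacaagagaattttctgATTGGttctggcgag
H2-Eb1, chr17:34305758-34305822, plus strand: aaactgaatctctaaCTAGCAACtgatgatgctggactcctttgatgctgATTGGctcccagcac
H2-DMb2, chr17:34145109-34145173, plus strand: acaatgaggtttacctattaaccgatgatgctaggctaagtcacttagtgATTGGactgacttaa
In *H2-Aa*, CTNGNAAC began 84 bases and ATTGG 48 bases before the start. In *H2-Eb1* they began 94 and 59 bases before it, so that the 2 adjacent genes shared the same arrangement with gaps of 28 and 27 bases. *H2-DMb1* held the pair too, with a gap of 28 bases, in a window that lies in an annotated first exon and is not shown. The window of *H2-DMb2* held an exact match to ATTGG only. Its letters ctattaac, also 28 bases from ATTGG, differ from CTNGNAAC by a t in place of the G. Near matches were not searched for, so these exact matches do not show that *H2-DMb2* lacks an X box. Over 250 bases upstream on both strands, CTNGNAAC was present in 10.9%, ATTGG in 33.9% and the pair in this order with a gap of 15 to 35 bases in 0.234% of 32851 promoters. The pair was not found upstream of either listed start of *H2-DMa* or of *Cd80*. The remaining members, *H2-Ab1*, *Cd74*, *Ciita*, *Cd40* and *Cd86*, were not in the promoter table.

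Libraries held between 4400197 (sEH-/- replicate 3) and 6096440 (wild-type replicate 2) counts. *Ephx2* had 4, 2 and 1 counts in the sEH-/- libraries against 26, 49 and 57 counts in wild-type ones (log2 fold change -4.05, SE 0.43, edgeR adjusted p = 0.004). Levels are in CPM, the counts of a library rescaled by its TMM-normalized size, and a gene was called changed at an edgeR quasi-likelihood Benjamini-Hochberg adjusted p below 0.05 and a change of more than 1.5-fold. Of 13785 genes tested, 360 (2.61%) were called, 208 (1.51%) higher and 152 (1.1%) lower in sEH-/- cells. That number was not stable to the libraries used: it was 96 when sEH-/- replicate 2 was left out, 25 and 6 when this was wild-type replicate 2 or 3, and 570 and 625 when it was sEH-/- replicate 3 or wild-type replicate 1.

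Of the 10 members, 1 was called lower (*H2-Eb1*; 1.1% of all genes tested) and 0 were called higher by edgeR (1.51% of all genes). At an unadjusted p below 0.05, 3 members were lower (*H2-Eb1*, *Ciita* and *Cd80*) and 0 higher, where 12.2% of all genes tested were lower and 23.4% either way at that p. DESeq2 called 0 members and limma-voom called 1. The log2 fold change was below 0 for 9 of the 10, with a median of -0.15 against 0.00 over all genes tested. The libraries of the 2 genotypes did not overlap for 2 members, *H2-Eb1* and *Ciita*, both lower in sEH-/- cells. Among all genes tested, 26.3% did not overlap and 14.5% had all sEH-/- libraries below the wild-type ones, so this share of the members was near that of genes in general. When sEH-/- replicate 1 was left out, 4 members did not overlap, against 45.8% of all genes tested, and when replicate 3 was left out there were 7, against 40.6%.

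**Figure D1:**
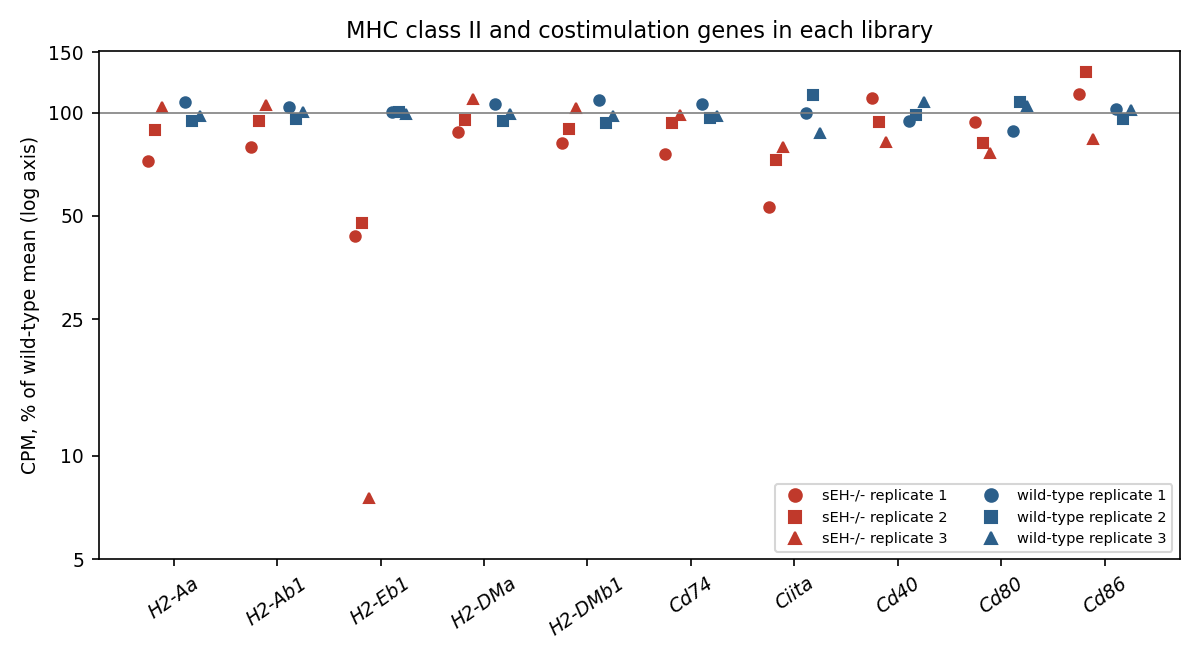
CPM of each of the 10 genes in each library as a percentage of the wild-type mean of that gene (log axis); red symbols are sEH-/- and blue symbols wild-type libraries, and the symbol shape gives the replicate number. *H2-Eb1* was at 43.7%, 47.6% and 7.53% in sEH-/- libraries, whereas the other class II chain genes stayed between 72.3% and 105%.

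*H2-Eb1* (chr17:34305867-34316674, plus strand, mm10) was the member that differed most. Its 3 sEH-/- libraries held 275, 254 and 35 counts, against 491, 669 and 596 in wild-type ones. In CPM these were 47.0, 51.2 and 8.10 against 108, 108 and 107. The groups did not overlap, sEH-/- replicates 1 and 2 lay at 43.7% and 47.6% of the wild-type mean and replicate 3 at 7.53%. The counting error was small beside these gaps, with exact 95% Poisson intervals of 41.6 to 52.9, 45.1 to 57.9 and 5.64 to 11.3 CPM for the 3 sEH-/- libraries. These intervals cover counting error only. The sEH-/- mean was 35.4 ± 23.7 CPM (SD, n = 3), and the wild-type mean was 108 ± 0.870 CPM (n = 3). This is a log2 fold change of -1.57 (SE 0.37, 95% interval -2.39 to -0.74, edgeR adjusted p = 0.047).

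The spread within the sEH-/- group was itself unusual. Over its 3 libraries *H2-Eb1* spanned 2.59 on the log2(CPM + 0.5) scale, and of 10277 genes averaging 50 counts or more, 0 spanned more (median 0.23). Over the wild-type libraries it spanned 0.02, less than in all but 122 of those genes (median 0.18). The call depended on single libraries and on the tool. When sEH-/- replicate 3 was left out, the call held at a smaller change (log2 fold change -1.13, edgeR adjusted p = 0.001), and it also held when replicate 1 of that genotype was left out. It was lost on leaving out sEH-/- replicate 2 (adjusted p = 0.061) or any wild-type library (replicate 1, 0.056; replicate 2, 0.17; replicate 3, 0.171). DESeq2 gave a log2 fold change of -1.60 with an adjusted p of 0.196.

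The other class II chain genes did not share this pattern. *H2-Aa* (chr17:34282744-34287823, minus strand), the α chain of I-A, had 87.6, 108 and 126 CPM in sEH-/- and 130, 115 and 118 CPM in wild-type libraries. *H2-Ab1* (chr17:34257689-34269419, plus strand), its β chain, had 111, 132 and 147 against 145, 134 and 140 CPM. For both genes sEH-/- replicate 1 was the lowest library, replicate 3 lay within or above the wild-type range, and the groups overlapped. The log2 fold changes were -0.18 for *H2-Aa* (95% interval -0.44 to 0.07, edgeR adjusted p = 0.381) and -0.11 for *H2-Ab1* (-0.33 to 0.11, adjusted p = 0.546).

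*Cd74* (chr18:60803848-60812652, plus strand), the invariant chain, had 119, 147 and 155 CPM in sEH-/- and 167, 151 and 153 CPM in wild-type libraries. Only sEH-/- replicate 1 stood clearly below the others. The log2 fold change was -0.17 (95% interval -0.38 to 0.05, edgeR adjusted p = 0.342).

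The genes of the peptide exchange factor H2-DM were close to equal. *H2-DMa* (chr17:34119541-34139101, plus strand) had 89.0, 96.5 and 111 CPM in sEH-/- and 108, 96.2 and 101 CPM in wild-type libraries. *H2-DMb1* (chr17:34153072-34160230, plus strand) had 72.9, 80.4 and 92.4 against 97.9, 83.6 and 87.5 CPM. Both groups overlapped, with log2 fold changes of -0.04 (95% interval -0.24 to 0.16, edgeR adjusted p = 0.842) and -0.13 (-0.35 to 0.09, adjusted p = 0.465). For *H2-Aa*, *H2-Ab1*, *Cd74*, *H2-DMa* and *H2-DMb1* together, the intervals ran from 0.736-fold to 1.12-fold, so a change of 1.5-fold lay outside all of them. These 5 genes varied together, with Pearson r between 0.83 and 0.99 for the 10 pairs over 6 libraries, whereas r of *H2-Eb1* with them lay between -0.38 and 0.11. These are descriptions, since the libraries share their depth and scaling across genes.

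**Figure D2:**
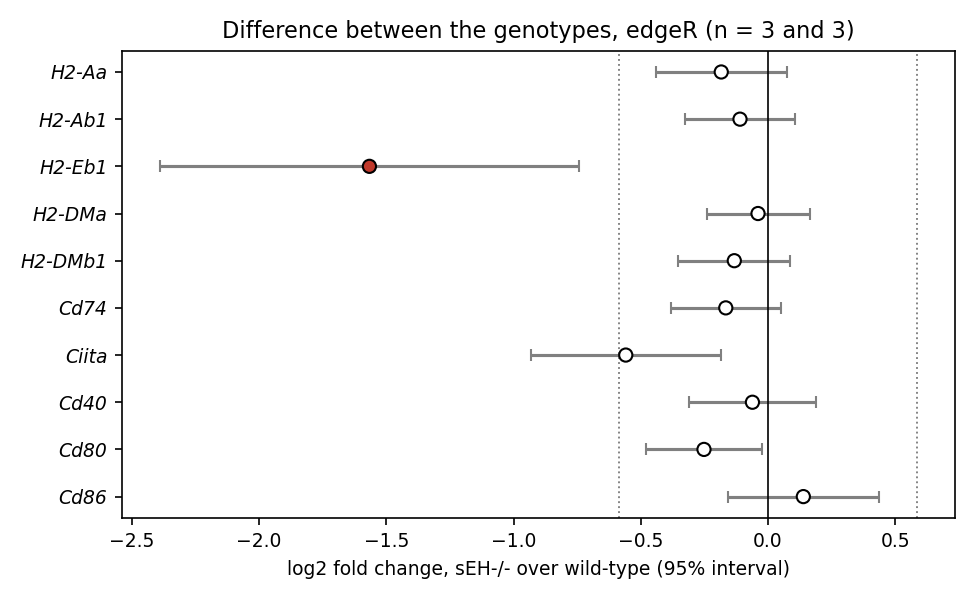
Log2 fold change of the 10 genes, sEH-/- over wild-type, with the 95% interval from edgeR (n = 3 libraries per genotype); the filled point was called and dotted lines mark 1.5-fold. The interval of *H2-Eb1* ran from -2.39 to -0.74, and those of *Ciita* and *Cd80* also lay below 0 although neither was called.

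*Ciita* (chr16:10480059-10528418, plus strand), which switches on the class II genes, had the next largest difference. It had 16.2, 22.2 and 24.3 CPM in sEH-/- and 30.5, 34.3 and 26.7 CPM in wild-type libraries, from 95, 110 and 105 against 139, 212 and 149 counts. The genotypes did not overlap, but their nearest libraries (24.3 and 26.7 CPM) lay close together. The log2 fold change was -0.56 (SE 0.17, 95% interval -0.93 to -0.19), and it missed both thresholds (edgeR adjusted p = 0.080). No alternative called it, with adjusted p between 0.058 and 1. The library order was not that of *H2-Eb1*: sEH-/- replicate 1 was the lowest for *Ciita* and replicate 3 for *H2-Eb1*. Over the 6 libraries, Pearson r of *Ciita* was 0.40 with *H2-Eb1* and 0.51 to 0.84 with the 5 class II genes above, as a description only.

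Of the costimulatory genes, none was called in either direction by edgeR, DESeq2 or limma-voom, and *Cd80* alone had an unadjusted p below 0.05. *Cd40* (chr2:165055627-165072948, plus strand) had 59.6, 51.0 and 44.4 CPM in sEH-/- and 51.1, 53.1 and 58.2 CPM in wild-type libraries (log2 fold change -0.06, 95% interval -0.31 to 0.19, edgeR adjusted p = 0.793). *Cd80* (chr16:38455561-38496335, plus strand) had 70.5, 61.4 and 57.2 against 66.5, 80.5 and 78.4 CPM (log2 fold change -0.25, -0.48 to -0.02, adjusted p = 0.176). *Cd86* (chr16:36603869-36666081, minus strand) had 92.9, 107 and 68.5 against 83.8, 78.2 and 83.2 CPM (log2 fold change 0.14, -0.16 to 0.43, adjusted p = 0.582). For all 3 the genotypes overlapped, and sEH-/- replicate 3 was the lowest library of the 6. This replicate also had the smallest total, and the part of the total in these values was not tested.

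Ratios of counts within a library do not depend on the scaling between libraries, and 9 of them were compared. *H2-Eb1* over *H2-Ab1* was 0.424, 0.388 and 0.0550 in sEH-/- libraries and 0.741, 0.808 and 0.760 in the others. *H2-Aa* over *H2-Ab1*, the 2 chains of I-A, was 0.790, 0.815 and 0.854 against 0.896, 0.855 and 0.843. The first ratio separated the genotypes and the second did not. *H2-DMa* over *H2-DMb1* was 1.22, 1.20 and 1.21 against 1.10, 1.15 and 1.15, a small difference that also separated the genotypes. *Cd86* over *Cd80* was 1.32, 1.75 and 1.20 against 1.26, 0.972 and 1.06, with overlap. With 3 libraries a group, a two-sided exact permutation test cannot go below p = 0.1, which 5 ratios reached (adjusted p = 0.18 over the 9). The others were *H2-Eb1* over *H2-Aa*, *H2-DMb2* over *H2-DMb1* and *Ciita* over *H2-Ab1*.

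**Figure D3:**
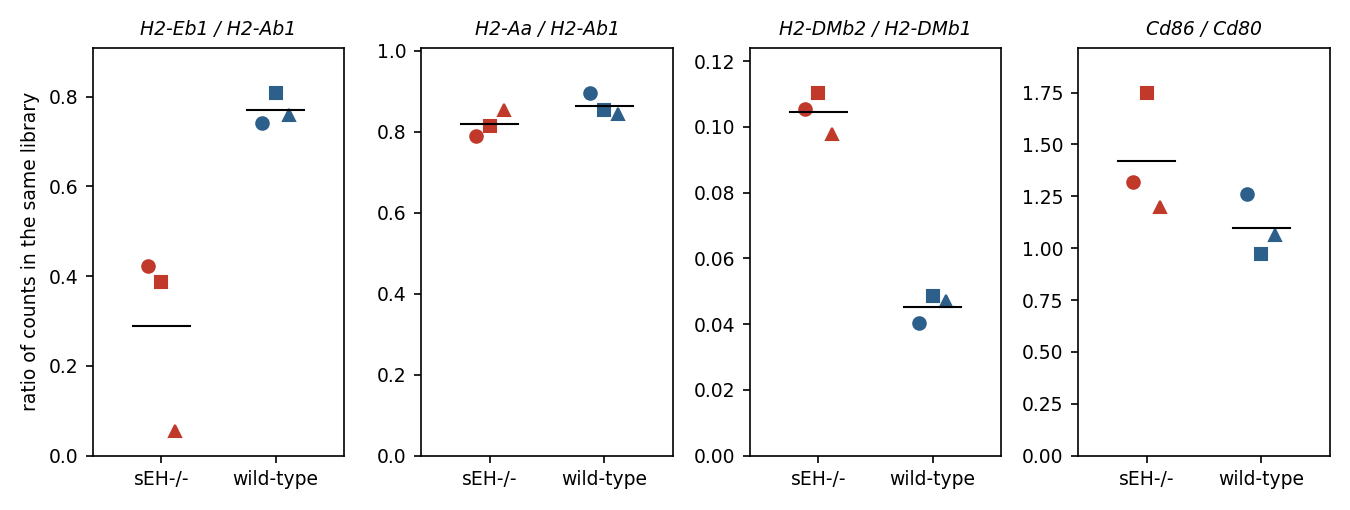
Ratio of the counts of 2 genes in the same library, for 4 pairs; red points are sEH-/- and blue points wild-type libraries, the shape gives the replicate number and the line the mean of 3 libraries. *H2-Eb1* over *H2-Ab1* was 0.424 or less in every sEH-/- library and 0.741 or more in every wild-type library, whereas *H2-Aa* over *H2-Ab1* lay between 0.790 and 0.896 in all 6.

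Levels between genes were compared as CPM per kb of annotated exon. In wild-type cells *Cd74* was highest at 93.5 ± 5.03 (SD, n = 3), followed by *H2-Eb1* at 55.3 ± 0.448, *H2-Ab1* at 54.5 ± 2.22 and *H2-DMb1* at 53.3 ± 4.39, which overlapped one another. *H2-Aa* (31.9 ± 2.16) and *H2-DMa* (29.4 ± 1.69) overlapped each other, as did *Cd86* (22.3 ± 0.837) and *Cd80* (20.3 ± 2.04). *Cd40* (15.9 ± 1.06) and *Ciita* (3.20 ± 0.403) were lowest and stood apart from their neighbours. In sEH-/- cells *H2-Eb1* was in position 7 of 10 at 18.2 ± 12.2, between *Cd86* (24.5 ± 5.36) and *Cd80* (17 ± 1.84) and overlapping both. *Cd74* again led at 83.5 ± 11.2. Because the authors removed duplicate reads, a gene can hold little more than about 1 count per exonic base, and the most abundant genes are compressed. The members lay between 0.0142 (*Ciita*) and 0.461 (*Cd74*) counts per base, below *Ctss* at 0.972.

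*H2-Eb1* was the only gene called lower among its neighbours. Of the 17 tested genes between *H2-Oa* and *Btnl6* (chr17:34092340-34517352, a window set after the values were seen), 2 were called, *H2-Eb1* lower and *H2-DMb2* higher. Over all genes tested, 2.61% were called. The other 15 had adjusted p of 0.104 or more, and the 10 of them that averaged 50 counts or more had log2 fold changes between -0.22 and 0.12. They include the immunoproteasome and peptide transporter genes *Psmb9*, *Tap1*, *Psmb8* and *Tap2*. The lower boundary of *H2-Aa*, the nearest tested gene, lies 23.1 kb before that of *H2-Eb1*. An antisense gene that overlaps the start of *H2-Eb1*, *Gm20513*, had 3, 0 and 1 counts in sEH-/- cells against 0, 9 and 4 and was not tested. Reads were counted by strand.

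**Figure D4:**
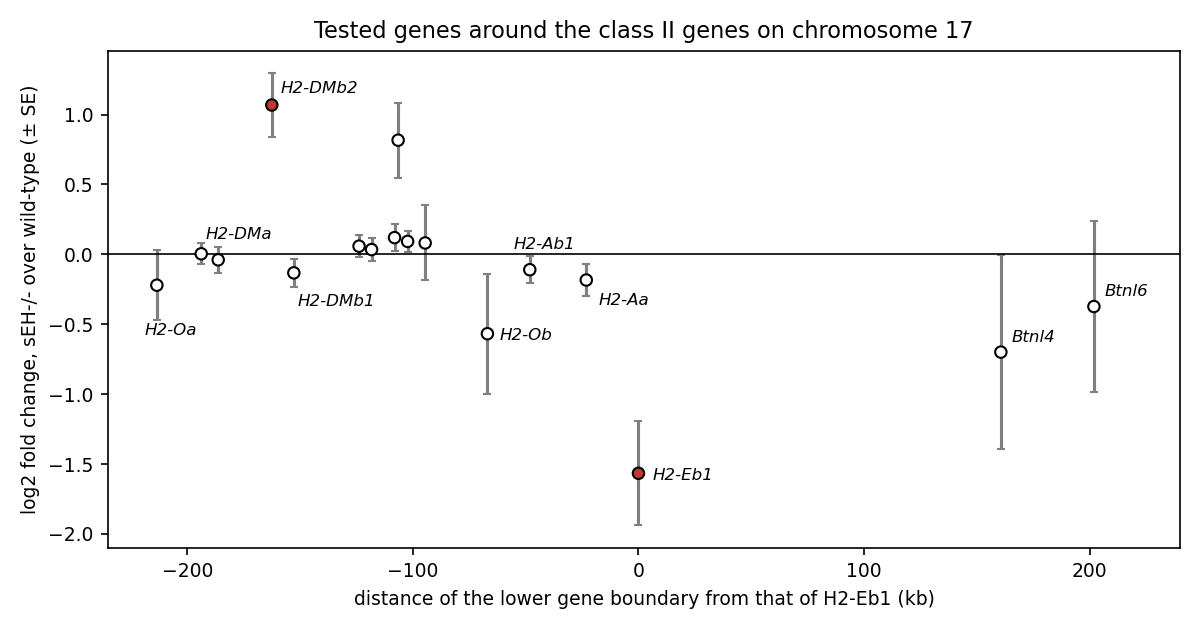
Log2 fold change, sEH-/- over wild-type, of the 17 tested genes between *H2-Oa* and *Btnl6* by the distance of the lower gene boundary from that of *H2-Eb1* in kb; bars are ± SE and filled points were called. *H2-Eb1* at -1.57 and *H2-DMb2* at 1.07 stood apart from the well-expressed genes around them, which lay close to 0.

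Genes around the members were described in 5 lists. Of 13 tested genes in other class II genes and antigen processing, 1 was called higher and 0 lower, against 1.51% and 1.1% of all genes tested. The median log2 fold change was 0.09. The called gene was *H2-DMb2*, a second β chain gene of H2-DM. It had 45, 44 and 39 counts in sEH-/- libraries against 18, 25 and 23 in wild-type ones, without overlap, which is 7.68, 8.86 and 9.03 against 3.95, 4.05 and 4.12 CPM. The log2 fold change was 1.07 (SE 0.23, edgeR adjusted p = 0.034; DESeq2 adjusted p = 0.049). The call was lost on leaving out sEH-/- replicate 2 (edgeR adjusted p = 0.10) or, among wild-type libraries, replicate 2 (0.17) or replicate 3 (0.149). *H2-DMb2* made up 9.53%, 9.93% and 8.90% of the counts of both β chain genes in sEH-/- cells, against 3.88%, 4.62% and 4.49% in wild-type libraries. The exact 95% binomial intervals of the single libraries ran from 6.41% to 13.1% and from 2.32% to 6.75%, and they cover counting error only. The 2 genes share 369 of the 1741 sequence windows of 50 bases in the *H2-DMb2* transcripts (21.2%), and multi-mapping reads were removed, so the assignment between them is uncertain. *H2-Eb1* and *H2-Eb2* shared 0 such windows. The most abundant genes of the list were *Ctsb*, a lysosomal protease (616, 732 and 780.5 against 754, 601 and 646 CPM), and *Sppl2a*, which cleaves the stub of the invariant chain (328, 353 and 365 against 364, 317 and 309.5 CPM). Neither was called (adjusted p = 0.706 and 0.641).

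The factors that act on class II promoters with CIITA gave 0 of 10 calls by edgeR, DESeq2 or limma-voom, with 4 at an unadjusted p below 0.05 (23.4% of all genes tested), and a median of -0.01. *Ep300*, a histone acetyltransferase, had 317, 266 and 281 CPM in sEH-/- and 293, 297 and 251 CPM in wild-type libraries. *Nfya*, a subunit of the Y box factor NF-Y, had 176, 180 and 184 against 195, 197 and 192 CPM, without overlap but with a log2 fold change of only -0.11 (edgeR adjusted p = 0.312). The IFN-γ route to *Ciita* gave 0 of 13 calls by edgeR, DESeq2 or limma-voom, with 5 at an unadjusted p below 0.05 (23.4% of all genes), and a median of 0.11, and 10 of the 13 had values above 0. Its most abundant genes were the kinase *Jak1* (log2 fold change -0.13, adjusted p = 0.378) and the transcription factor *Irf8* (-0.01, adjusted p = 0.978).

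Among other B7 family members and costimulatory ligands, 0 of 12 tested genes were called by edgeR, DESeq2 or limma-voom, with 4 at an unadjusted p below 0.05 (again beside 23.4%), and the median was 0.01. *Cd274*, which encodes the inhibitory ligand PD-L1, had 402, 417 and 510 CPM in sEH-/- and 503, 435 and 452 CPM in wild-type libraries. *Vsir*, an inhibitory B7 family member, had 353, 399 and 460 against 437, 380 and 377 CPM. Both overlapped (log2 fold change -0.06 and 0.02, adjusted p = 0.771 and 0.933).

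Downstream of CD40, 1 of 11 genes was called higher and 0 lower, against 1.51% and 1.1% of all genes tested, with a median of 0.15. *Traf1*, an adaptor of TNF receptor family signalling, had 89.0, 65.7 and 64.3 CPM in sEH-/- and 43.4, 45.5 and 55.8 CPM in wild-type libraries (log2 fold change 0.60, SE 0.14, edgeR adjusted p = 0.046; DESeq2 0.006; limma-voom 0.052). Its call was lost without any one library other than sEH-/- replicate 3, with adjusted p between 0.052 and 0.206. At an adjusted p below 0.05 without the fold threshold, *Map3k14*, *Nfkb2* and *Relb*, members of the alternative NF-κB route, were higher too, which makes 4 of 11 by edgeR (2.39% of all genes). Their log2 fold changes were 0.42, 0.37 and 0.46, and their genotypes did not overlap. *Birc2*, of the same list, went the other way, also without overlap (log2 fold change -0.25, edgeR adjusted p = 0.073). Fits without single libraries are not given for *Map3k14*, *Nfkb2* and *Relb*. For *Map3k14* the adjusted p was 0.089 with DESeq2 and 0.052 with limma-voom, whereas *Nfkb2* (0.018 and 0.038) and *Relb* (0.021 and 0.050) stayed below 0.05 with both, so that limma-voom left 2 of the 11. The most abundant genes of the list, the ubiquitin ligase *Traf6* (-0.13, adjusted p = 0.372) and the feedback inhibitor *Tnfaip3* (0.08, adjusted p = 0.537), were not called. *Cd40* itself was not called, as given above.

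**Figure D5:**
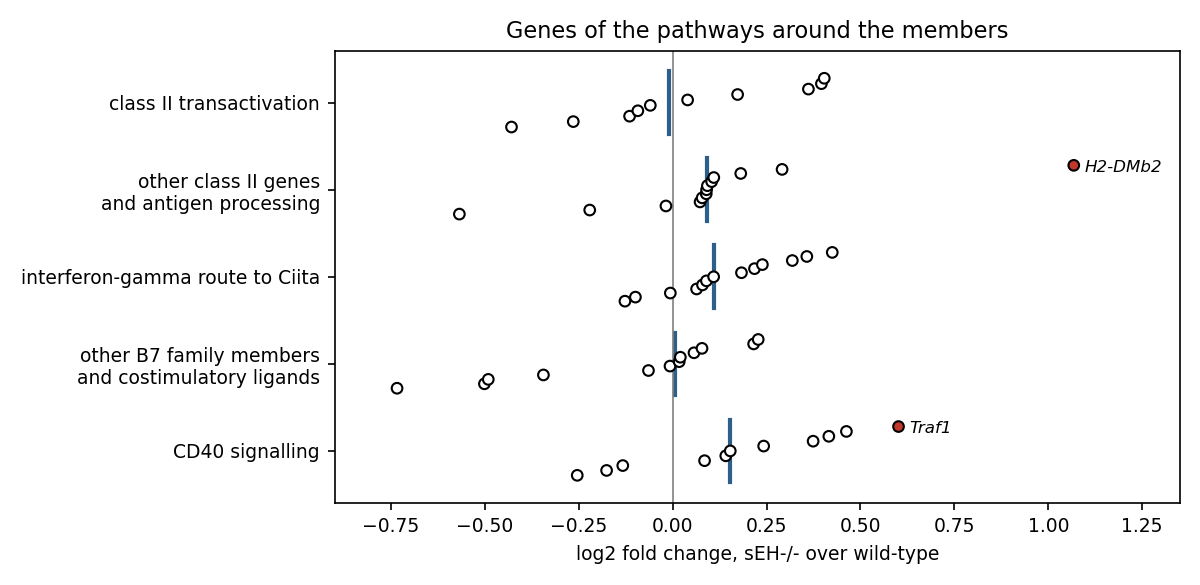
Log2 fold change, sEH-/- over wild-type, of each tested gene in 5 lists of genes around the members; blue lines are list medians and filled points were called. Of 59 genes, *H2-DMb2* and *Traf1* were called, where 2.61% of all genes tested were called, and the medians lay between -0.01 and 0.15.

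By the rule used for likeness, 5 of 10267 other genes followed the mean standardised log2 CPM of *H2-Aa*, *H2-Ab1*, *H2-Eb1* and *Cd74* most closely over the 6 libraries. They were *Tor1a* (r = 0.999), *Fabp4* (0.985), *Rasa3* (0.979), *Ube2q2* (0.970) and *Pxmp4* (0.967). The log2 fold changes of these genes lay between -0.29 and -0.11 with none called (adjusted p of 0.218 or more). The profile was lowest in sEH-/- replicate 1, whereas *H2-Eb1* was lowest in replicate 3. Pearson r of *H2-Eb1* with *H2-Aa*, *H2-Ab1* and *Cd74* lay between -0.11 and 0.11. A resemblance to the profile is therefore not one to *H2-Eb1*. With 6 points chosen from so many genes, such values describe a resemblance only.

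The macrophage part of the label fitted its markers, and the M2c state was not examined. The macrophage genes *Csf1r* (423, 529 and 545 CPM in sEH-/- and 481, 390 and 399 CPM in wild-type libraries), *Adgre1* and *Mertk* were high in every library. The 10 macrophage markers summed to 2115 to 2664 CPM in sEH-/- and 1893 to 2404 CPM in wild-type libraries. Of these, 0 were called by edgeR or limma-voom and 1, *C1qa*, by DESeq2. By edgeR 4 had an unadjusted p below 0.05, against 23.4% of all genes tested. All 10 had log2 fold changes above 0, with a median of 0.24, while 9 of the 10 members lay below 0. The part of this shift in the values of the members was not tested. Dendritic cells carry much class II and share several genes with activated macrophages. Their 11 markers summed to 68.7 to 101 CPM in sEH-/- and 80.3 to 106 CPM in wild-type libraries. Of 7 tested, 1 was called, against 2.61% of all genes tested. The log2 fold changes of 5 lay below 0 (median -0.24), and *Cd209a* was at 0 in all libraries. The called marker was the chemokine *Ccl22* (log2 fold change 1.15, edgeR adjusted p = 0.034), a call that was lost on leaving out sEH-/- replicate 1 (0.050) or 2 (0.061), or wild-type replicate 2 (0.168) or 3 (0.133). *Clec9a* had 16.4, 23.4 and 42.6 against 30.3, 37.6 and 32.2 CPM, *Cd83* 27.7, 24.0 and 25.9 against 27.7, 33.8 and 29.9 CPM, and *Zbtb46* 5.29, 3.22 and 9.26 against 9.22, 14.6 and 10.6 CPM. *Batf3*, a transcription factor of conventional dendritic cells, had 2.73, 4.43 and 3.93 against 5.49, 5.35 and 8.59 CPM, with all sEH-/- libraries lower. The 5 markers below 0 were *Zbtb46* (-0.98), *Batf3* (-0.82), *Clec9a* (-0.31), *Cd83* (-0.24) and *Ccr7* (-0.09), with edgeR adjusted p between 0.115 and 0.917. The others tested went the other way. *Fscn1* had 3.76, 2.01 and 2.78 against 0.878, 1.78 and 1.43 CPM (log2 fold change 1.03, edgeR adjusted p = 0.144). For *Fscn1* and *Ccl22* all sEH-/- libraries were higher. *Clec9a* was highest in sEH-/- replicate 3. The part of dendritic cells in the values of the members was not tested.

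Defining genes of lymphocytes and neutrophils were at low levels. The marker sums of sEH-/- against wild-type libraries were 110 to 141 against 108 to 126 CPM for B cells, 31.4 to 47.0 against 35.1 to 46.5 CPM for T and NK cells and 27.7 to 31.2 against 17.6 to 20.9 CPM for neutrophils, with 0 of 4 tested genes called by edgeR (1 at an unadjusted p below 0.05). Of the B cell genes, *Cd79b*, *Pax5* and *Ebf1* had at most 2 counts in any library, and *Cd22* stood apart with 109, 122 and 141 against 125, 126 and 108 CPM. Of the T and NK cell genes, *Cd4* had 16.4, 28.6 and 35.9 against 20.4, 30.6 and 22.9 CPM, *Lck* had 15, 9.27 and 11.1 against 14.5, 15.9 and 18.6 CPM, and *Klrb1c* had at most 4 counts. Of the neutrophil genes, *S100a8* had 23.9, 29.6 and 27.1 against 17.1, 18.1 and 20.0 CPM (adjusted p = 0.057), while *Camp* and *Ltf* had at most 10 counts. In bulk RNA, fewer cells of a type and less RNA per cell cannot be told apart.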

How the data were processed

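The authors deposited raw counts per gene for 6 libraries. According to the methods and the submitters' processing notes, they trimmed reads with Trimmomatic 0.39, aligned them to mm10 with STAR 2.7.7a, discarded duplicates (Picard 2.21.7) and reads that were ribosomal, mitochondrial or multi-mapping, and counted exonic reads by strand with featureCounts 1.6.5. The methods give other versions of some tools, and the library kit differs between the labels (an mRNA kit) and the methods (a total RNA kit). Removing duplicates limits abundant genes to about 1 count per exonic base.

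Counts were fitted in R 4.3.3 with edgeR 4.0.16 (TMM factors 0.982 to 1.03, glmQLFit and glmQLFTest, no covariates) over the 13785 genes with a mean above 5 counts, and p-values were adjusted over all of them. The common biological coefficient of variation was 0.087. A call needed a log2 fold change beyond 0.585 in either direction with an adjusted p below 0.05. Dividing the log2 fold change by the root of the F statistic gave its SE. The scripts were tested on simulated counts. Log2 values of single libraries use a pseudocount of 0.5 CPM. GENCODE M21 (same build) gave exonic lengths and transcript sequences, and RefSeq (GRCm38.p6) the promoters, which were found for 5 of the 10 members. Members, lists and motifs were chosen with earlier results of these data known. Named were the members, *Ephx2*, the called and the 2 most abundant genes of each pathway list, the 3 most abundant of each marker list and the 5 most similar genes. Other genes named (the neighbours on chromosome 17, *Map3k14*, *Nfkb2*, *Relb*, *Birc2*, *Ccl22*, *Batf3*, *Ccr7*, *Fscn1*, *Ctss*, *C1qa*, *Cd209a*, *Pax5* and *H2-Eb2*) were chosen after their values were seen. Alternatives were DESeq2 1.42.0, limma-voom (limma 3.58.1), other scalings and filters, thinning, a replicate block, leaving out each library, other call rules, counts corrected for the ceiling and the library total as a covariate. Listed genes without a row in the table were not analysed here. Libraries of one genotype differed by more than sampling noise. The labels number the libraries and the study gives 3 mice per group.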

Additional observations from a re-analysis of the deposited data

How the results depend on the processing

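The count of called genes (360) became 234 with a replicate block, 553 without the fold threshold, 10 with a test against 1.5-fold (glmTreat), 171 with the library total as a covariate and 6 to 625 when 1 library was left out. The single member called lower, *H2-Eb1*, gave 0 calls with DESeq2 (log2 fold change -1.60), glmTreat (-1.57) and the covariate (-1.50), and 0 to 1 when 1 library was left out. Its call held in 11 of 18 alternatives and was lost in 7, with log2 fold changes between -1.88 and -1.13 throughout. Members called higher stayed at 0 in all alternatives. Members without overlap numbered 2 to 7 of 10 when 1 library was left out, where the share of all genes was 30.5% to 45.8%. Leaving out 1 library moved *H2-DMa* between -0.12 and 0.0343 and *Cd40* between -0.18 and 0.0411. The other members kept their direction, but the size of small changes rested on single libraries: *H2-Aa* ran from -0.30 (without sEH-/- replicate 3) to -0.05 (without sEH-/- replicate 1), *H2-Ab1* from -0.20 to -0.0037 and *Cd74* from -0.23 to -0.06 for the same libraries, and *Cd86* from 0.01 (without sEH-/- replicate 2) to 0.30 (without replicate 3). Counts corrected for the ceiling moved *Cd74* to -0.27. For libraries with the same replicate number, the deviations from the group means had r = -0.0859, -0.269 and -0.0383. With 3 libraries a group, such deviations constrain one another, so these values cannot show whether the numbers pair the libraries. The replicate block left *H2-Eb1* called (1 member). Summing *H2-DMb1* and *H2-DMb2*, an alternative chosen after seeing the data, gave a log2 fold change of -0.05. At 3 libraries a group, *H2-DMb2* and *Ciita* rest on few counts.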
